A study of Homo sapiens with 38 samples.

Results

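The 40 genes described here encode the machinery by which cells take in particles, receptors and fluid through clathrin-coated pits, caveolae and scavenger receptors. They were followed in A549, an established line of human alveolar epithelial origin, exposed to fumed silica nanoparticles (NPs). The members were the genes of a list of uptake genes whose transcript accession was carried by a probe of the microarray. All 40 were found, among 19720 genes with a probe, and they carried 54 probes. Each gene was represented by its probe with the highest mean over the 38 arrays, and 13 genes had other probes, whose values are given with the gene where a call differed between probes in a comparison with controls. By role, the list holds the 3 chains of the clathrin coat, the 5 subunits of the AP-2 adaptor, 14 pit nucleation and cargo adaptors, 6 scission and uncoating factors, the 3 RAB5 GTPases of the early endosome, 4 genes of caveolae and flotillin domains, and 5 scavenger and endocytic receptors.

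Gene expression was read by single-dye microarrays after exposure to 5 doses of silica for 24 h, and after 72 h also for the 3.0 and 6.0 µg/cm2 doses. All cells were A549 cells kept in serum-free medium during exposure, and control cells received that medium without NPs. Doses of 0.1 and 1.0 µg/cm2 (4 arrays each) share 4 control arrays, the dose of 1.5 µg/cm2 (4 arrays) has 4 control arrays of its own, and doses of 3.0 and 6.0 µg/cm2 (3 arrays each) share 3 control arrays at 24 h and another 3 at 72 h. A549 cells come from a lung tumour, and the deposited arrays measure 1 such line, without the macrophages, serum or airway mucus that particles meet in a lung. The labels of the arrays taken as 72 h of exposure give 72 h as their source, but 24 h in their descriptions.

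In clathrin-mediated endocytosis the AP-2 adaptor and early factors such as FCHO2 and EPS15 gather cargo at the plasma membrane, clathrin polymerises over them, dynamin cuts the neck of the pit, and synaptojanin and other factors strip the coat. The vesicle then fuses with early endosomes under the control of RAB5. Caveolae are small flask-shaped pits built from caveolin and cavin proteins, abundant in alveolar epithelium, and scavenger receptors bind modified lipoproteins and, in several reported cases, particles.

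Levels are log2 processed signals from which the 75th percentile of the same array was subtracted, so a level of 0 is that percentile and a difference of 1 is a doubling. This percentile lay between 740.4 and 3202 intensity units, well above background lay between 54.34% and 73.51% of probes per array, and saturated spots were absent. Each dose was set against its own controls with limma. A probe entered the fit if, in at least 1 of the groups compared, all arrays had it well above background. A gene passed the test at a Benjamini-Hochberg adjusted p under 0.05 over all probes tested, and was called modulated when it also changed by at least 1.5-fold, the thresholds of the study. The epithelial markers EPCAM, KRT8, KRT18, KRT19 and CDH1 were well above background on all 38 arrays. Of the type II pneumocyte markers, ABCA3 and SFTPC were well above background on all 38, SFTPA2 and SFTPD on 37, LAMP3 on 33, SFTPA1 on 11, SFTPB on 2 and NKX2-1 on 1. The leukocyte markers PTPRC, CD14 and CD79A were also well above background on all 38, while CD3E was so on 7, MARCO on 5 and CD163 on 1. Of the endothelial markers, CDH5 was well above background on 37 arrays, VWF on 26, PECAM1 on 3 and KDR on 0. Of the fibroblast markers, COL1A1 and THY1 were so on 38, LUM on 31, COL3A1 on 2, and COL1A2 and PDGFRB on 0. The titles number each array of a group as its own biological replicate, while the treatment protocol speaks of 3 cultures and groups up to 1.5 µg/cm2 hold 4 arrays, in which replicates 1 and 2, and replicates 3 and 4, lay close to each other. The correlation within these pairs was 0.87 at 0.1, 0.81 at 1.0 and 0.63 at 1.5 µg/cm2, so the spread between arrays may be partly technical there. At 72 h all exposed arrays were scanned a day after the control arrays, and scan day and exposure cannot be told apart.

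Of the 40 members, 36 were tested in every comparison, and 34 were well above background on every array. The remaining 4 were not tested. CD36, a fatty acid and lipoprotein receptor, was well above background on 0 arrays, COLEC12, a collectin-type scavenger receptor, was so on 3, and AMPH, a neuronal partner of dynamin, on 13. CLTC, the clathrin heavy chain, was not well above background on any of the 38 arrays by its probe with a matching accession. Another probe, which the supplementary list of the study assigns to CLTC, was well above background on all 38, so the failed probe does not give the level of clathrin heavy chain mRNA. In bulk RNA, fewer cells of one kind and less RNA per cell cannot be told apart.

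By the chosen probes of the 36 members tested, none passed at the 3 lower doses and few passed at 24 h of 3.0 µg/cm2. The members that passed at 72 h were mostly lower than in control cells. At 0.1 µg/cm2, 0 members passed in either direction by limma, against 0% of all genes tested. An unadjusted p under 0.05 was found for 3 of the 36 members and for 1176 of all 14205 genes tested. At 1.0 µg/cm2, 0 passed, against 0.0144% of all genes in each direction and 0.0144% modulated. Here 4 members and 2420 of all 13930 genes had an unadjusted p under 0.05. At 1.5 µg/cm2, 0 passed, against 1.7% of all genes higher, 0.203% lower and 1.15% modulated. Here 6 members and 1934 of all 13785 genes had an unadjusted p under 0.05. The methods' t-test with the same adjustment also called 0 members modulated at each of these doses. These counts leave out the probes that the study assigns to EPS15, HIP1 and CLTC. Those of EPS15 and HIP1, taken from the study's list of changed transcripts, rose at 1.5 µg/cm2 by limma, as given below.

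At 3.0 µg/cm2 and 24 h, 0 members rose and 3 fell, or 8.33%, against 6.31% of all genes higher and 7.7% lower. At 6.0 µg/cm2 and 24 h, 3 rose and 10 fell, or 27.8%, against 15.3% and 21.9%. Leaving out 1 array gave between 1 and 3 members lower at the first dose, and between 1 and 3 higher and 7 and 9 lower at the second. The share of members that fell was therefore near that of all genes at both doses. By the chosen probes, only ARRB1 was modulated in either comparison, against 3.33% of all genes at 3.0 and 10.1% at 6.0 µg/cm2.

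After 72 h at 3.0 µg/cm2, 1 member rose and 16 fell, or 44.4%, against 13.3% of all genes higher and 16.2% lower. The median difference of the members was −0.20, and that of all genes 0.01. After 72 h at 6.0 µg/cm2, 5 rose and 15 fell, or 41.7%, against 22.7% and 25.2%, with medians of −0.26 and 0.01. The counts of members changed when single arrays were left out. Leaving out 1 array at 3.0 µg/cm2 gave between 5 and 11 members lower, with 5 without control replicate 2, 8 without exposed replicate 2, 10 without control replicate 3, 10 without exposed replicate 3 and 11 without either of the others. The same at 6.0 µg/cm2 gave between 9 and 16, the fewest without control replicate 2. With no filter on dim probes, 8 members were lower at 3.0 µg/cm2. The share of all genes that were lower was not counted in these fits, so it cannot be set beside them. Without 1 array at 3.0 µg/cm2, between 685 and 914 of all genes were modulated, against 856 with every array. Most members that passed at 72 h changed by less than 1.5-fold. At each dose 3 members, or 8.33%, were modulated. This is above the 6.01% of all genes at 3.0 µg/cm2 and below the 17.5% at 6.0 µg/cm2. These comparisons share control arrays within each time.

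**Figure D1:**
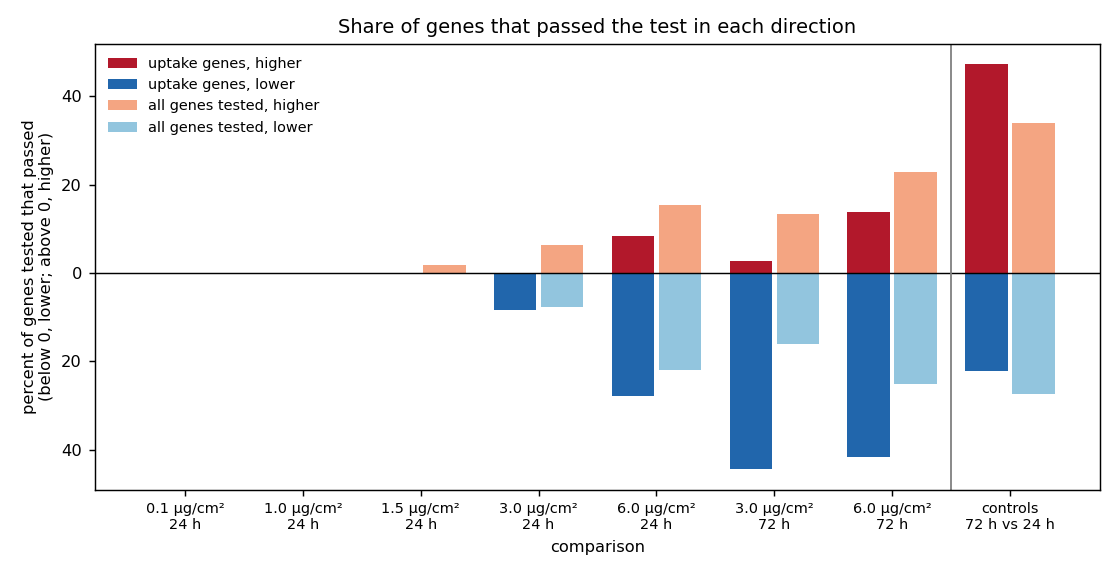
Percent of genes tested that passed the test by limma, higher above 0 and lower below 0, for the 36 uptake genes tested (dark) and all genes tested (light), in the 7 comparisons of dose and time with controls and in controls at 72 h against 24 h. At 72 h, 44.4% and 41.7% of the uptake genes were lower at 3.0 and 6.0 µg/cm2, against 16.2% and 25.2% of all genes.

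**Figure D2:**
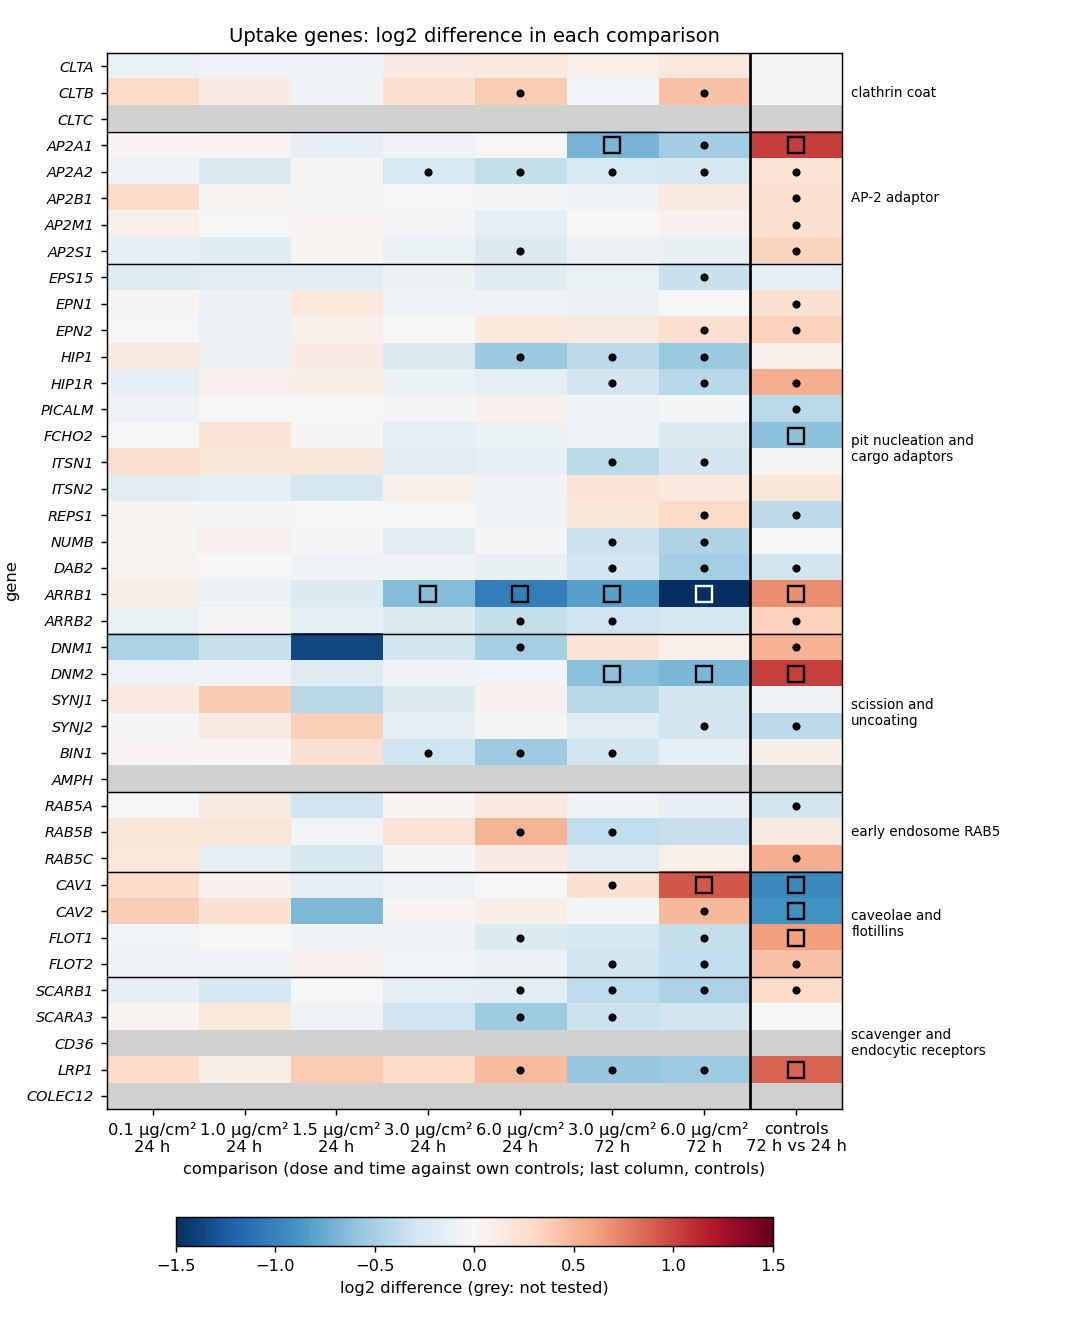
The log2 difference of each of the 40 uptake genes (rows, by role) in the 7 comparisons with controls and, in the last column, in controls at 72 h against 24 h. Dots mark genes that passed the test, squares those also changed by at least 1.5-fold, and grey the 4 genes not tested. ARRB1 is the only gene with squares at both times and both doses, from −0.65 to −1.5.

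Of the clathrin coat, by the chosen probes, only the light chain CLTB passed in a comparison with controls. On the 3 control arrays at 24 h its level was −2.35, −2.62 and −2.62, and at 6.0 µg/cm2 it was −2.24, −2.25 and −1.95. At 72 h it was −2.51, −2.63 and −2.50 in control cells and −2.24, −2.04 and −2.04 at 6.0 µg/cm2. Every array at 6.0 µg/cm2 lay above the control arrays of its time. CLTB rose by 0.38 ± 0.11 (SE, limma adjusted p = 0.0421) at 24 h, then by 0.44 ± 0.08 (adjusted p = 0.00568) at 72 h. The other light chain, CLTA, differed by between −0.10 and 0.16 and did not pass in any comparison with controls. By the probe that the study assigns to CLTC, the level at 72 h was −2.90, −2.89 and −2.99 in control cells, −2.48, −2.62 and −2.58 at 3.0 µg/cm2, and −2.24, −2.33 and −2.44 at 6.0 µg/cm2. Both doses lay above all control arrays. This probe rose by 0.37 ± 0.06 (limma adjusted p = 0.0104) and by 0.59 ± 0.08 (adjusted p = 0.00133), a value that became 0.35 with normexp background correction. It did not pass at 24 h of these doses, where the differences were 0.12 and 0.03. Nor did it pass at 1.5 µg/cm2, where all exposed arrays lay above the controls and the difference was 0.29 ± 0.12 (SE, limma unadjusted p = 0.0461, adjusted p = 0.289).

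Of the AP-2 adaptor, which links the clathrin lattice to the membrane and its cargo, the alpha subunits AP2A1 and AP2A2 fell at 72 h at both doses. AP2A1 levels at 72 h were −0.30, −0.29 and −0.37 in control cells, −1.32, −0.84 and −0.92 at 3.0 µg/cm2, and −1.18, −0.79 and −0.54 at 6.0 µg/cm2. The exposed arrays lay below all control arrays but were spread widely. AP2A1 fell by 0.70 ± 0.13 (SE, limma adjusted p = 0.0141), or 1.63-fold, at 3.0 µg/cm2, and by 0.52 ± 0.16 (adjusted p = 0.0336) at 6.0 µg/cm2. Without exposed replicate 1 the first value was −0.56 (adjusted p = 0.00659), and without control replicate 2 it was −0.69 (adjusted p = 0.0623). At 24 h AP2A1 levels were −1.37, −1.39 and −1.32 in control cells, −1.51, −1.48 and −1.27 at 3.0 µg/cm2, and −1.56, −1.37 and −1.11 at 6.0 µg/cm2, which overlap. AP2A2 fell in all 4 comparisons at 3.0 and 6.0 µg/cm2, by between 0.23 and 0.36, under the fold threshold. A second AP2A2 probe fell at 6.0 µg/cm2 and 24 h, by 0.35, and differed by −0.19 at 3.0 µg/cm2 and 24 h and by −0.31 and −0.24 at 72 h without passing (limma adjusted p = 0.214, 0.12 and 0.172). AP2S1, the sigma subunit, fell by 0.22 at 6.0 µg/cm2 and 24 h, and neither AP2B1 nor AP2M1, the beta and mu subunits, passed in a comparison with controls.

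Among the cargo adaptors, ARRB1, which encodes beta-arrestin 1 and couples activated G protein-coupled receptors to clathrin and AP-2, was the member with the most calls. At 24 h its level was −2.88, −2.73 and −2.89 in control cells, −3.68, −3.43 and −3.34 at 3.0 µg/cm2, and −3.87, −3.79 and −3.91 at 6.0 µg/cm2. At 72 h it was −1.95, −2.22 and −2.24 in control cells, −3.01, −2.87 and −2.96 at 3.0 µg/cm2, and −3.71, −3.59 and −3.59 at 6.0 µg/cm2. At both times the arrays of the 3 conditions did not overlap and were lowest at the higher dose. ARRB1 fell by 0.65 ± 0.10 (SE, limma adjusted p = 0.0107) and 1.02 ± 0.07 (adjusted p = 0.000171) after the shorter exposure, and by 0.81 ± 0.09 (adjusted p = 0.00365) and 1.50 ± 0.10 (adjusted p = 9.62e-05) after the longer one, the last a 2.82-fold change. It is a dim probe. At 24 h, normexp correction of the background gave −0.37 (adjusted p = 0.00684) at 3.0 µg/cm2 and −0.34 (adjusted p = 0.371) at 6.0 µg/cm2. At 3.0 µg/cm2 and 24 h the call was also lost without exposed replicate 1 (−0.55, adjusted p = 0.0246), with the series matrix values (−0.47, adjusted p = 0.0522), with no filter on dim probes (adjusted p = 0.0504) and with the methods' t-test (adjusted p = 0.0563). At the 3 lower doses ARRB1 differed by 0.10, −0.09 and −0.20 and did not pass. The fit at 1.5 µg/cm2 dropped control replicate 1, whose spot had been marked by the scanner software. ARRB2, its close relative, fell by 0.36 at 6.0 µg/cm2 and 24 h and by 0.30 at 3.0 µg/cm2 and 72 h.

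HIP1 and HIP1R, which tie coated pits to actin, fell at 72 h by the probe chosen for each. HIP1 levels at 24 h were −1.33, −1.27 and −1.5 in control cells, −1.57, −1.58 and −1.61 at 3.0 µg/cm2, and −1.80, −1.94 and −2.04 at 6.0 µg/cm2. At 72 h they were −1.48, −1.17 and −1.22 in control cells, −1.77, −1.70 and −1.58 at 3.0 µg/cm2, and −1.60, −1.71 and −2.25 at 6.0 µg/cm2. Exposed and control arrays did not overlap in any of these 4 comparisons. HIP1 fell by 0.56 ± 0.09 (SE, limma adjusted p = 0.00446) at 6.0 µg/cm2 and 24 h, by 0.39 ± 0.10 (adjusted p = 0.0352) at 3.0 µg/cm2 and 72 h, and by 0.56 ± 0.18 (adjusted p = 0.0429) at 6.0 µg/cm2 and 72 h, and differed by −0.22 without passing at 3.0 µg/cm2 and 24 h. The probe that the study assigns to HIP1 gave 0.08 and 0.13 at 24 h and −0.11 and 0.16 at 72 h and did not pass, so the fall of HIP1 rests on 1 probe. HIP1R fell by 0.28 and 0.42 at 72 h, and its second probe fell by 0.46 at 3.0 µg/cm2 and differed by −0.34 (limma adjusted p = 0.104) at 6.0 µg/cm2.

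DAB2, an adaptor for lipoprotein receptors and integrins, had levels at 72 h of −0.57, −0.42 and −0.47 in control cells, −0.76, −0.82 and −0.76 at 3.0 µg/cm2, and −0.92, −0.99 and −1.04 at 6.0 µg/cm2. The 3 conditions did not overlap. DAB2 fell by 0.29 ± 0.06 (SE, limma adjusted p = 0.0183) and 0.50 ± 0.07 (adjusted p = 0.00187) at 72 h. At 24 h its levels were −0.21, −0.21 and −0.21 in control cells, −0.23, −0.27 and −0.30 at 3.0 µg/cm2, and −0.25, −0.46 and −0.25 at 6.0 µg/cm2, and it did not pass. NUMB, an adaptor that removes Notch and integrins from the surface, fell by 0.32 and 0.46 at 72 h, and ITSN1, an intersectin scaffold, by 0.41 and 0.27. One further ITSN1 probe fell by 0.21 at 3.0 µg/cm2 and differed by −0.09 at 6.0 µg/cm2, and another differed by −0.16 and −0.30, without passing. In contrast, EPN2, an epsin that bends membranes, and REPS1, an EH-domain protein, rose at 6.0 µg/cm2 and 72 h, by 0.24 and 0.29. A second EPN2 probe rose instead at 6.0 µg/cm2 and 24 h, by 0.37 (limma adjusted p = 0.0492), and gave 0.13 at 72 h, without passing. EPN1, PICALM, FCHO2 and ITSN2 did not pass in any comparison with controls. A second PICALM probe, however, rose by 0.19 at 6.0 µg/cm2 and 24 h and fell by 0.41 at 3.0 µg/cm2 and 72 h.

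EPS15 and HIP1 are genes that the study names for clathrin-mediated uptake at 1.5 µg/cm2, and each gave a different result by its 2 probes. The study's supplementary list, from which the second probe of each was taken, holds transcripts already called changed on these same arrays. A rise by those probes is therefore not an independent result. By the probe with a matching accession, EPS15 levels were −1.05, −0.75, −0.92 and −1.09 in control cells and −1.12, −1.16, −1.10 and −1.07 at 1.5 µg/cm2, which overlap. This is a difference of −0.16 ± 0.09 (SE, 95% interval −0.37 to 0.05, limma adjusted p = 0.436). By the probe that the study assigns to EPS15, levels were −1.56, −2.12, −1.70 and −1.95 in control cells and −0.60, −0.96, −0.45 and −0.36 at 1.5 µg/cm2, without overlap. That probe rose by 1.24 ± 0.17 (95% interval 0.86 to 1.62, limma adjusted p = 0.00707), or 2.36-fold. The difference was 1.06 within the first scan day and 1.42 within the second. Each of these fits holds a single pair of replicates per group, which may be technical repeats, so no p-value is given for them. With pairs of replicates as a random block in the fit of all arrays, the limma adjusted p was 0.16.

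For HIP1 at 1.5 µg/cm2, the probe with a matching accession gave −0.63, −0.65, −0.77 and −0.67 in control cells and −0.51, −0.61, −0.66 and −0.48 in exposed cells. The probe that the study assigns to HIP1 gave −1.25, −1.09, −1.29 and −1.25 in control cells and −0.58, −0.64, −0.68 and −0.75 in exposed cells. Only the latter groups did not overlap. The first probe differed by 0.12 ± 0.08 (SE, 95% interval −0.06 to 0.29, limma adjusted p = 0.505), and the second rose by 0.55 ± 0.08 (95% interval 0.37 to 0.73, adjusted p = 0.00849), or with pairs of replicates as a random block an adjusted p of 0.104. At higher doses the probes diverged again. At 6.0 µg/cm2 and 72 h EPS15 fell by 0.33 ± 0.07 (limma adjusted p = 0.0118) by its matching accession and rose by 0.47 ± 0.08 (adjusted p = 0.00488) by the other probe. The files do not pair the study's probes with an accession of these genes, and which transcripts they bind was not tested.

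**Figure D3:**
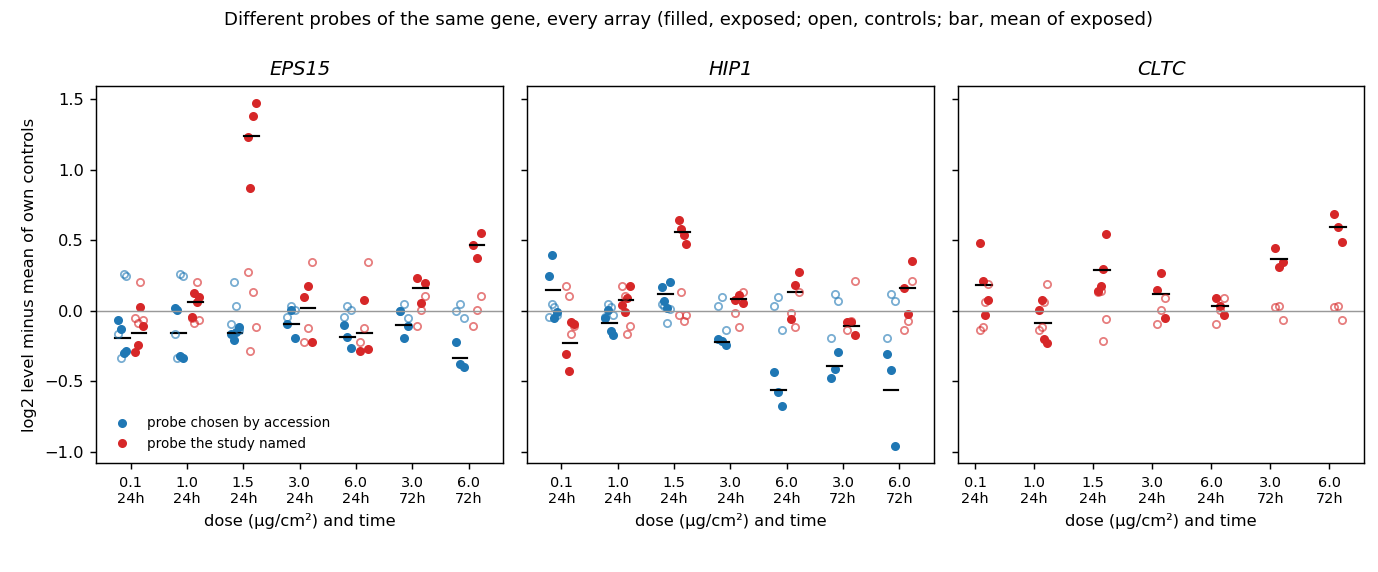
Log2 level minus the mean of its own controls on every array, for EPS15 and HIP1 by the probe chosen by accession (blue) and the probe named by the study (red), and for CLTC by the latter, with exposed arrays filled, control arrays open and bars at the exposed mean. At 1.5 µg/cm2 the red EPS15 arrays average 1.24 above their controls and the blue ones −0.16.

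Of the scission and uncoating factors, DNM2, the dynamin present in most tissues, fell at 72 h. Its levels at 72 h were 1.74, 1.47 and 1.43 in control cells, 0.87, 0.96 and 0.93 at 3.0 µg/cm2, and 0.77, 0.85 and 0.95 at 6.0 µg/cm2. All exposed arrays lay below all control arrays, and the 2 doses overlapped. DNM2 fell by 0.63 ± 0.10 (SE, limma adjusted p = 0.00814), or 1.54-fold, and by 0.69 ± 0.10 (adjusted p = 0.00238), or 1.61-fold. Without control replicate 1 the first value was −0.53, under the fold threshold. At 24 h its levels were 0.54, 0.53 and 0.53 in control cells, 0.43, 0.42 and 0.52 at 3.0 µg/cm2, and 0.42, 0.49 and 0.57 at 6.0 µg/cm2, and it did not pass.

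DNM1, the dynamin best known from neurons, gave 7.88, 4.55, 7.12 and 4.39 on the control arrays of the 1.5 µg/cm2 dose and 5.09, 5.09, 4.18 and 4.15 on the exposed arrays. Its difference of −1.36 had a 95% interval from −3.16 to 0.45 (limma adjusted p = 0.439), since control replicates 1 and 3 stood apart from 2 and 4. DNM1 fell by 0.50 at 6.0 µg/cm2 and 24 h. BIN1, an amphiphysin that shapes the neck of the pit, fell by 0.30 and 0.55 at 24 h and by 0.27 at 3.0 µg/cm2 and 72 h. SYNJ2, a phosphoinositide phosphatase of the uncoating step, fell by 0.27 at 6.0 µg/cm2 and 72 h, and SYNJ1 did not pass. A second SYNJ2 probe gave −0.05 there, without passing, and rose by 0.52 at 6.0 µg/cm2 and 24 h (limma adjusted p = 0.0237).

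RAB5B was the 1 RAB5 GTPase that passed in a comparison with controls, in opposite directions at the 2 times. At 24 h its level was −0.95, −0.92 and −0.95 in control cells and −0.54, −0.51 and −0.25 at 6.0 µg/cm2, and at 72 h −0.86, −0.87 and −0.70 in control cells and −1.38, −1.10 and −1.07 at 3.0 µg/cm2. Neither pair of groups overlapped. RAB5B rose by 0.51 ± 0.09 (SE, limma adjusted p = 0.00561) and fell by 0.37 ± 0.10 (adjusted p = 0.0442). RAB5A and RAB5C did not pass.

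By the chosen probes, CAV1, the main structural protein of caveolae, was the only modulated member that rose in a comparison with controls. Its levels at 72 h were 2.50, 2.48 and 2.47 in control cells, 2.66, 2.69 and 2.77 at 3.0 µg/cm2, and 3.33, 3.48 and 3.43 at 6.0 µg/cm2. The 3 conditions did not overlap. CAV1 rose by 0.23 ± 0.05 (SE, limma adjusted p = 0.0258) and by 0.93 ± 0.06 (adjusted p = 0.000125), the latter 1.9-fold. A second CAV1 probe rose by 0.50 (adjusted p = 0.0216) and 1.02 (adjusted p = 0.000756). At 24 h CAV1 levels were 3.51, 3.45 and 3.40 in control cells, 3.42, 3.32 and 3.40 at 3.0 µg/cm2, and 3.49, 3.44 and 3.46 at 6.0 µg/cm2, which overlap, and CAV1 did not pass. Levels at 6.0 µg/cm2 and 72 h were thus in the range seen at 24 h, while control cells at 72 h were lower.

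CAV2, which forms hetero-oligomers with CAV1, had levels at 72 h of 1.14, 1.01 and 0.91 in control cells, 0.98, 1.02 and 0.99 at 3.0 µg/cm2, and 1.39, 1.61 and 1.52 at 6.0 µg/cm2. The higher dose lay above all other arrays of that time, and the lower dose lay within the controls. CAV2 rose by 0.49 ± 0.09 (SE, limma adjusted p = 0.00565) at 6.0 µg/cm2 and differed by −0.02 at 3.0 µg/cm2. At 24 h its levels were 1.91, 1.98 and 1.88 in control cells, 1.89, 1.98 and 2.04 at 3.0 µg/cm2, and 2.03, 2.02 and 1.99 at 6.0 µg/cm2, and it did not pass. A second, dimmer CAV2 probe fell by 0.41 at 6.0 µg/cm2 and 24 h (adjusted p = 0.00504) and rose by 0.34 at 6.0 µg/cm2 and 72 h (adjusted p = 0.021). At 1.5 µg/cm2 the levels were 0.80, 0.79, 1.52 and 1.50 in control cells and 0.76, 0.78, 0.21 and 0.18 in exposed cells. Replicates 3 and 4, scanned on the second day, carried nearly all of the difference of −0.67 (limma adjusted p = 0.196), which was −1.32 within that day. The fit within that day holds only replicates 3 and 4 of each group, which may be technical repeats, so no p-value is given for it. At the lowest dose CAV1 and CAV2 differed by 0.28 and 0.37, with no overlap between exposed and control arrays, and did not pass.

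FLOT1 and FLOT2 are the flotillins of another, clathrin-independent route. FLOT1 fell by 0.21 at 6.0 µg/cm2 and 24 h and by 0.36 at 6.0 µg/cm2 and 72 h, and FLOT2 fell by 0.28 and 0.37 at 72 h. A second FLOT2 probe fell by 0.49 at 6.0 µg/cm2 and 72 h and differed by −0.50 at 3.0 µg/cm2, without passing.

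Of the 5 receptors, 3 were tested, and by the chosen probes 3 fell at 3.0 µg/cm2 and 2 at 6.0 µg/cm2 after 72 h. SCARB1, the receptor for high-density lipoprotein, fell by 0.17 at 6.0 µg/cm2 and 24 h and by 0.38 (limma adjusted p = 0.00532) and 0.47 (adjusted p = 0.00125) at 72 h. SCARA3, a class A scavenger receptor, fell by 0.53 (adjusted p = 0.00447) at 6.0 µg/cm2 and 24 h and by 0.32 at 3.0 µg/cm2 and 72 h. A second SCARA3 probe was more even between replicates, with 0.80, 0.78 and 0.84 in control cells at 24 h and 0.02, 0.09 and 0.14 at 6.0 µg/cm2, and 0.63, 0.66 and 0.57 in control cells at 72 h and −0.08, −0.01 and 0.07 at 6.0 µg/cm2. These groups did not overlap. By that probe SCARA3 fell in all 4 comparisons at 3.0 and 6.0 µg/cm2, by 0.39, 0.72, 0.27 and 0.63, so that it was modulated at 6.0 µg/cm2 at both times (adjusted p = 0.000278 and 0.000642).

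LRP1, a large endocytic receptor for protease complexes and lipoproteins, had levels at 24 h of −4.32, −3.89 and −3.86 in control cells, −3.71, −3.84 and −3.69 at 3.0 µg/cm2, and −3.55, −3.52 and −3.54 at 6.0 µg/cm2. At 72 h they were −3.02, −3.25 and −3.18 in control cells, −3.85, −3.60 and −3.72 at 3.0 µg/cm2, and −3.87, −3.67 and −3.53 at 6.0 µg/cm2. Exposed arrays lay above the controls at 24 h and below them at 72 h. LRP1 rose by 0.48 ± 0.12 (SE, limma adjusted p = 0.0255) at 6.0 µg/cm2 and 24 h and fell by 0.57 ± 0.09 (adjusted p = 0.0095) and 0.54 ± 0.11 (adjusted p = 0.00764) at 72 h. A second, dimmer LRP1 probe gave −0.14 at 6.0 µg/cm2 and 24 h, without passing, and had the other direction at 72 h, with 1.02 ± 0.40 (not passing) at 3.0 µg/cm2 and a rise of 0.48 ± 0.15 (adjusted p = 0.0431) at 6.0 µg/cm2, so the direction of LRP1 depends on the probe.

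**Figure D4:**
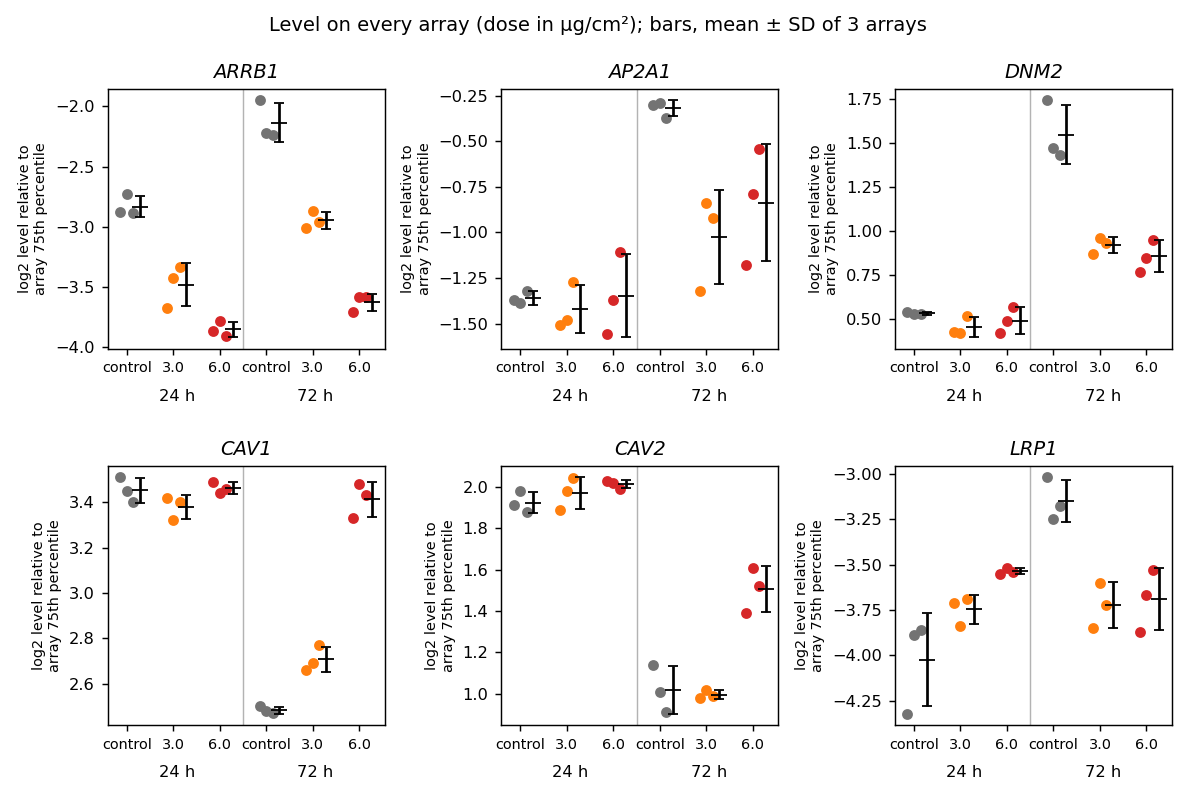
Log2 level relative to the 75th percentile of the array for ARRB1, AP2A1, DNM2, CAV1, CAV2 and LRP1 on each of the 18 arrays of control cells and of 3.0 and 6.0 µg/cm2 at 24 h (left of each panel) and 72 h (right), with bars for the mean ± SD of 3 arrays. CAV1 at 6.0 µg/cm2 lies between 3.33 and 3.48 at 72 h, above 2.50, the highest control array of that time.

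Control cells themselves differed between 72 h and 24 h, on arrays scanned on the same day. Of the 36 members tested, 17 were higher at 72 h, or 47.2%, and 8 were lower, or 22.2%, against 33.8% and 27.3% of all genes. Modulated members were 8, against 18.7% of all genes. AP2A1 rose by 1.04 ± 0.05 (SE, limma adjusted p = 6.03e-05), DNM2 by 1.02 ± 0.09 (adjusted p = 0.000314), LRP1 by 0.87, ARRB1 by 0.70 and FLOT1 by 0.62. CAV1 fell by 0.97 ± 0.05 (adjusted p = 7.69e-05), CAV2 by 0.91 ± 0.07 (adjusted p = 0.000242), and FCHO2, an early pit factor, by 0.61. When any probe of a gene counted, FLOT2 and HIP1R were modulated as well, by 0.80 and 0.78, whereas second probes of EPN2, SYNJ2, PICALM and LRP1 gave 0.11, 0.32, −0.03 and 0.28 and did not pass. All 5 subunits of AP-2 were higher at 72 h in control cells. These controls are also those of the 72 h comparisons above, in which AP2A1, DNM2, ARRB1 and LRP1 had negative values and CAV1, at 6.0 µg/cm2, a positive one. The comparisons share arrays, and their values stand side by side only.

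Whether the response differed between times was tested as 72 h minus 24 h in 1 fit per dose. For 3.0 µg/cm2, 1 member passed higher and 6 lower, against 11.7% and 11.5% of all genes, and 2 were modulated, against 5.06%. AP2A1 gave −0.65 ± 0.16 (SE, limma adjusted p = 0.0199) and LRP1 −0.85 ± 0.17 (adjusted p = 0.00929). For 6.0 µg/cm2, 5 passed higher and 9 lower, against 20.6% and 20.5%, and 4 were modulated, against 17.4%. These were CAV1 (0.92 ± 0.08, adjusted p = 1.9e-05), DNM2 (−0.65 ± 0.12, adjusted p = 0.00198), RAB5B (−0.86 ± 0.17, adjusted p = 0.00269) and LRP1 (−1.02 ± 0.18, adjusted p = 0.00141). Second probes of CAV2 and FLOT2 were modulated too, at 0.75 and −0.66, and that of LRP1 in the other direction, at 0.62. For ARRB1, the difference between times was −0.16 ± 0.14 at 3.0 µg/cm2, which did not pass, and −0.47 ± 0.12 (adjusted p = 0.0103) at 6.0 µg/cm2.

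Between the doses, 6.0 against 3.0 µg/cm2, 0 members passed higher and 2 lower at 24 h, against 4.25% and 5.69% of all genes, and 0 were modulated, against 1.85%. The members that passed were HIP1 (−0.34 ± 0.07, SE, limma adjusted p = 0.0338) and BIN1 (−0.25 ± 0.05, adjusted p = 0.0379). Replicate numbers pair these samples, and with the replicate block 1 member passed higher and 3 lower. Without 1 array, 0 or 1 member passed. At 72 h, 3 passed higher and 1 lower, against 6.65% and 12.1%, and 2 were modulated, against 5.38%. CAV1 was higher at the upper dose by 0.70 ± 0.07 (adjusted p = 0.00326), CAV2 by 0.51 ± 0.07 (adjusted p = 0.00807) and CLTB by 0.48 ± 0.10 (adjusted p = 0.023), and ARRB1 was lower by 0.68 ± 0.07 (adjusted p = 0.00339). Normexp correction gave −0.35 for ARRB1 here, under the fold threshold.

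The promoters of 4 of these genes are shown because CAV1 and CAV2, neighbours on chromosome 7, fell with time in control cells and rose at 6.0 µg/cm2 and 72 h, while AP2A1 and DNM2, both on chromosome 19, did the reverse. Each sequence is the 250 bases before the most upstream RefSeq start of the gene in GRCh38.p14, 5′ to 3′ on the plus strand, on which all 4 genes lie. Capitals mark GC boxes (GGGCGG, or CCGCCC on the other strand) and CCAAT boxes (CCAAT, or ATTGG), which do not overlap each other here.
CAV1, chr7:116524759-116525008: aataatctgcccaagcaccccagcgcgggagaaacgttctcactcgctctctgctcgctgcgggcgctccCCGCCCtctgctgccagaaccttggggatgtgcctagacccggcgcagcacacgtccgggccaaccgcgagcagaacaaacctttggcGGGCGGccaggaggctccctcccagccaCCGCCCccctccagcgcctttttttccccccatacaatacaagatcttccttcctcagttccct
CAV2, chr7:116499488-116499737: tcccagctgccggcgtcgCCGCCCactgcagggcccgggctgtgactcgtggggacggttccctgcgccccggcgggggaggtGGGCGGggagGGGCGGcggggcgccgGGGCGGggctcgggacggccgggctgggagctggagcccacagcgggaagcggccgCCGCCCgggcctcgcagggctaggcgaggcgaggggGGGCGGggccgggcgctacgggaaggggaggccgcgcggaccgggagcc
AP2A1, chr19:49766751-49767000: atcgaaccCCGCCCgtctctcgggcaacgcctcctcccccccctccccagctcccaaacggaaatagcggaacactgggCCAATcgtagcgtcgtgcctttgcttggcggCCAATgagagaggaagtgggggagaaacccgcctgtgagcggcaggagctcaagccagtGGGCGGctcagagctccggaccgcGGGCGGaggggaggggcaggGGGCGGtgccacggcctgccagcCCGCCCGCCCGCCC
DNM2, chr19:10717829-10718078: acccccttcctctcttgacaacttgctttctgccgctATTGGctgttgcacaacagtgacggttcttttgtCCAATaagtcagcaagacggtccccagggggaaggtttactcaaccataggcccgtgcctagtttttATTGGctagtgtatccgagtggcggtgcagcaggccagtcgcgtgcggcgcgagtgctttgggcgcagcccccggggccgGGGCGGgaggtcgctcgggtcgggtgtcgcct
CAV1 holds 3 GC boxes and CAV2 holds 6, and neither window holds a CCAAT box. AP2A1 holds 7 GC boxes, overlapping ones counted apart, and 2 CCAAT boxes, and DNM2 holds 1 and 3. None of these windows holds TATAAA, the AP-1 letters TGACTCA or the E-box CACGTG on either strand. Over 27326 RefSeq promoter windows of this length, 42.2% hold a GC box, 33% a CCAAT box, 11.2% TATAAA, 4.15% TGACTCA and 6.47% CACGTG. Of the 37 members with a sequence, 30 hold a GC box, or 81.1%, 13 a CCAAT box, or 35.1%, 1 TATAAA, 2 TGACTCA and 1 CACGTG. ARRB1 is among the 3 members that had none.

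Of 106 other genes of the same routes with a probe, between 94 and 95 were tested in these comparisons. After 3.0 µg/cm2, 11 rose and 6 fell at 24 h and 7 rose and 16 fell at 72 h. After 6.0 µg/cm2, 22 rose and 15 fell at 24 h and 16 rose and 24 fell at 72 h. As shares of those tested, these are 11.6% and 6.32%, then 7.37% and 16.8%, at the lower dose, against 6.31% and 7.7%, then 13.3% and 16.2%, of all genes. They are 23.2% and 15.8%, then 16.8% and 25.3%, at the higher dose, against 15.3% and 21.9%, then 22.7% and 25.2%. By group, 3 of 20 scavenger and lipoprotein receptors tested rose and 10 fell at 6.0 µg/cm2 and 72 h, and 5 of 11 caveolar and flotillin-like genes rose and 1 fell. Neither group was tested as a whole. No gene of this list passed at 0.1 or 1.0 µg/cm2, and 2 rose at 1.5 µg/cm2. The largest changes were in genes that are not among the 40. PACSIN1, an F-BAR partner of dynamin, fell by 1.14 and 1.91 at 24 h and by 1.12 and 2.38 at 72 h (limma adjusted p = 2.56e-05 for the last). ELMO1, part of the engulfment pathway that activates RAC1, fell by 0.62, 0.98, 1.07 and 1.80, and RIN1, an exchange factor for RAB5, rose by 0.67, 1.08, 0.75 and 1.63. CD68, a lysosomal scavenger receptor of macrophages, rose by 1.29 and 2.29 at 24 h, and by 0.61 at 6.0 µg/cm2 and 72 h. SCARA5, a class A scavenger receptor, fell by 0.60 and 1.59 at 72 h, and CD14, a co-receptor for lipopolysaccharide, by 0.59 and 1.39, after being 3.39 higher at 72 h than at 24 h in control cells. STON1, a stonin adaptor, fell by 2.34 at 6.0 µg/cm2 and 72 h, where it was well above background on 1 of 3 exposed arrays. EPN3, an epithelial epsin, fell by 0.69 at 6.0 µg/cm2 and 24 h and rose by 0.71 at 72 h. CD14 and CD68 are also known from macrophages, but all samples were cultures of the A549 line. What lies behind these values was not tested.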

How the data were processed

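RNA of 38 A549 samples was hybridised to single-dye 4x44K whole-genome arrays. The deposited files hold, for each spot, the intensity that Agilent Feature Extraction (10.10.1.1 or 11.0.1.1, per the file headers) had corrected for background, with other columns of quality marks that the authors deposited beside it. The authors' series matrix holds the median spot intensity: all 1690810 values equal that column within 0.01.

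Control spots and spots marked as non-uniform or outliers (0.612%) were left out, spots of a probe were averaged, and the deposited processed intensity was taken as log2, less the 75th percentile over the same array. Each comparison was fitted with limma 3.58.1 (R 4.3.3) and adjusted by Benjamini-Hochberg over all probes tested. Groups came from the labels. The study's methods used a t-test, which was run as an alternative. Probes were assigned to genes by transcript accession, and for EPS15, HIP1 and CLTC a probe that the study's supplementary list names was added. That list holds transcripts the study had called changed on these same arrays, so a rise by these probes is not independent of their choice. Promoters came from RefSeq (GRCh38.p14).

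The members and gene lists were chosen with earlier results of these data known. Values on every array are given for members modulated in a comparison with controls and for EPS15, HIP1, CLTC, DAB2, CAV1 and CAV2. Those of CLTB, DNM1, RAB5B, LRP1 and the second SCARA3 probe were added after their values were seen. Of other uptake genes, the 8 with the largest change in any comparison are named. Between 6.0 and 3.0 µg/cm2, deviations of arrays with the same replicate number correlated by 0.25, 0.29 and 0.26 at 24 h and by 0.60, 0.15 and 0.31 at 72 h. At 1.5 µg/cm2 against its controls they correlated by 0.47, 0.07, 0.21 and 0.37, and with the replicate block 0 members passed there. In the other comparisons these correlations lay between −0.34 and 0.16. The titles number every array as a biological replicate, but the treatment protocol speaks of 3 cultures where some groups hold 4 arrays, so p-values measure the spread between these arrays, which may be partly technical. The number of arrays limits the precision. In simulated data, 200 probes were shifted by 1.5 on the log2 scale. Of these, 86.5% were called in the design of 1.5 µg/cm2 (21020 probes) and 94% in that of 6.0 µg/cm2 and 72 h (21857 probes). In the difference between times at 6.0 µg/cm2 (22604 probes), 85.5% were called. This shift exceeds nearly all differences of the members, and the simulated noise was independent between arrays, without correlation within pairs. These shares therefore do not apply to smaller changes. Alternatives were background correction by normexp (offset 50), quantile normalization, other filters and leaving out each array. Slide and pairs of replicates were also fitted as random blocks, and replicate number and scan day as fixed blocks. Values within each scan day were chosen after seeing the data.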

Additional observations from a re-analysis of the deposited data

Results flagged for a closer look

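On 2 arrays, a value stood far from the other 3 of its group. ARRB1 in replicate 3 of 1.0 µg/cm2 was at −2.40, with the others between −2.57 and −2.56. EPS15, by the probe that the study names, was at −1.96 in replicate 3 of the controls of the 2 lowest doses, with the others between −2.25 and −2.22. Of 54 groups of 4 arrays screened, 2 were found, and chance gives about 1 in 20.

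The response to silica differed between 72 h and 24 h, by limma's test of the difference, for 5 members changed by at least 1.5-fold. At 3.0 µg/cm2 the difference was −0.65 for AP2A1 (adjusted p = 0.0199) and −0.85 for LRP1 (adjusted p = 0.00929). At 6.0 µg/cm2 it was −0.65 for DNM2 (adjusted p = 0.00198), −0.86 for RAB5B (adjusted p = 0.00269), −1.02 for LRP1 (adjusted p = 0.00141) and 0.92 for CAV1 (adjusted p = 1.9e-05). Exposed cells at 72 h were scanned on another day than the other arrays of these tests, and scan day and exposure cannot be told apart there.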

How the results depend on the processing

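Of 223 recomputed counts of modulated members, 196 stayed within 1.5 times the reported count. A count of 0 that stayed 0 is included, and at 0.1 and 1.0 µg/cm2 every count was 0. The rule compares numbers, not names. At 6.0 µg/cm2 and 24 h, normexp kept a count of 1, but through SCARA3 in place of ARRB1. The 21 modulated values of named genes kept their sign in all 346 alternatives run and stayed modulated in 312. At 1.5 µg/cm2 the count of 0 became 2 within the second scan day (CAV2 and SYNJ1). More of all genes were also modulated in that fit than with every array, so these 2 calls cannot be read as particular to the members. The fit holds only replicates 3 and 4 of each group, which may be technical repeats. At 3.0 µg/cm2 and 24 h the count of 1 became 0 with normexp, 0 with no filter on dim probes, 0 with the methods' t-test and 0 with the series matrix values. At 6.0 µg/cm2 and 24 h it became 2 when any probe of a gene counted, through SCARA3. For 6.0 against 3.0 µg/cm2 at 72 h the count of 2 became 1 with normexp and 1 with the series matrix values, and for the difference between times at 3.0 µg/cm2 it became 1 with normexp. Without the fold threshold the counts were 3 and 13 at 24 h and 17 and 20 at 72 h for 3.0 and 6.0 µg/cm2, 25 for control cells over time, 2 and 4 between doses at 24 h and 72 h, and 7 and 14 for the differences between times. Leaving out 1 array gave 0 to 1 modulated at 3.0 µg/cm2 and 24 h, 1 to 2 at 6.0 µg/cm2 and 24 h, 2 to 4 and 3 to 5 at 72 h, 7 to 9 for control cells over time, and 1 to 4 and 3 to 6 for the differences between times at 3.0 and 6.0 µg/cm2. The 5 at 6.0 µg/cm2 and 72 h came without exposed replicate 3. The 4 between times at 3.0 µg/cm2 came without control 72 h replicate 2 or exposed 72 h replicate 3, and the 1 without exposed 24 h replicate 3 or exposed 72 h replicate 1. At 6.0 µg/cm2 and 24 h, normexp left 1 member higher and 5 lower. At 3.0 µg/cm2 and 72 h, where the numbers do not pair samples, the replicate block left 0 members higher and 6 lower. Under the alternatives, genes that passed in each direction were counted among the members only. With the replicate block the counts of modulated members were 0 and 2 between doses at 24 h and 72 h, as reported, and it changed no other count of modulated members. The median of the members at 72 h lay between −0.17 and −0.22 at 3.0 µg/cm2 and between −0.23 and −0.26 at 6.0 µg/cm2 under all 4 scalings. The median of all genes was lowest with the series matrix values, at −0.07 and −0.09, against 0.01 at both doses in the main fit. Over 16 settings the median of the members lay between −0.24 and −0.13 at 3.0 µg/cm2 and between −0.27 and −0.22 at 6.0 µg/cm2. The slide block could not be fitted for the 72 h comparisons with controls, and the t-test was not run for the differences between times. The cause of these changes was not tested. Dim probes such as ARRB1, whose values changed with the background correction, limit what can be measured.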
